A study of Mus musculus with 6 samples.

Results

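Chemokines are small secreted proteins that guide cell migration, and chemokine receptors are the membrane proteins that bind them. The mouse genes of both kinds were followed in C1498 cells treated with the PARP-1 inhibitor PJ34. Genes were taken by symbol, as every gene named Ccl, Cxcl, Xcl, Cx3cl, Ccr, Cxcr, Xcr, Cx3cr or Ackr with a number, through probe sets assigned to 1 gene. This gave 61 probe sets for 56 genes, 34 ligands and 22 receptors, out of 19938 genes that had such a probe set. Each gene was read from its probe set with the highest mean over the 6 arrays. The rule selects genes by symbol, and expression values enter only the choice among probe sets of the same gene. Ccl21 and Ccl27 were left out because their probe sets are assigned to several genes.

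Ligands are named CC, CXC, XC or CX3C after the spacing of cysteines near their amino terminus. Inflammatory ligands such as Ccl2, Ccl3 and Ccl5 are induced in infection or injury, whereas homeostatic ligands such as Ccl19, Ccl25 and Cxcl12 place leukocytes in lymphoid organs, gut and bone marrow. Most receptors couple to inhibitory heterotrimeric G proteins and steer the cell towards higher ligand concentrations, while the atypical receptors (Ackr) bind ligands without such coupling and remove or transport them. Leukemia cells can carry some of these receptors, and Cxcr4 is known for holding hematopoietic and leukemic cells in the bone marrow through Cxcl12.

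C1498 is a mouse line of C57BL/6J background that the labels and the study describe as acute myeloid leukemia (AML). PJ34 blocks PARP-1, a nuclear enzyme that attaches poly(ADP-ribose) chains to proteins in DNA repair and transcription. PJ34 (20 μM) or, as the vehicle control, PBS was added for 48 h, and total RNA of each of 3 samples per group was hybridised to its own Affymetrix Mouse Gene array. All 6 samples came from 1 cell line, the study speaks of independent experiments without describing them, and p-values measure only the spread between these samples, which may be technical.

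Values are log2 expression values, so that a difference of 1 is a doubling. They are set side by side between samples for 1 gene at a time. A position among all probe sets describes the array values and does not rank transcripts, since probe sets differ in how brightly they bind. Array medians lay between 4.41 and 4.46, and arrays correlated at 0.992 to 0.995 within groups and 0.992 to 0.994 between them. Marker genes of the labelled and of other cell types were read the same way, as array values only. Mpo, the granule peroxidase of myeloid precursors, and Csf1r and Itgam, a macrophage growth factor receptor and an integrin of myeloid cells, lay below the median value of the tested probe sets, at or above only 34.6%, 31.6% and 38.0% of them. Of the 8 monocyte and macrophage markers 2 lay at or above the median value, Fcgr1 (73.5%) and Cd68 (53.0%), and of the 10 granulocyte markers 0. Of 11 T cell markers 4 did, Cd3g (98.0%), Cd3e (96.9%), Lat (78.4%) and Cd3d (50.6%), while the other 7, among them Cd247, Cd4 and Cd8a, lay between 25.04% (Cd8b1) and 45.4% (Thy1). These positions settle no cell type, and the cells are called by their line name. None of the 7 marker lists other than that of T cells had a gene at or above the 75th percentile of values.

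With PJ34, 3 of the 56 genes rose at an adjusted p under 0.05 and none fell: the receptors Cx3cr1 and Ccr7 and the ligand Ccl3. Among all 23410 probe sets assigned to a gene, 3.06% were called by the same test, 1.72% higher and 1.34% lower. At an unadjusted p under 0.05, 10 of the 56 genes were higher and 0 lower, where the shares of all probe sets were 8.95% and 7.74%. The 3 PJ34 arrays lay wholly above the 3 PBS arrays for 11 genes and wholly below them for 1, where 12.6% of all probe sets were separated upwards and 10.9% downwards. The test was limma's moderated test with Benjamini-Hochberg adjustment over all 23410 probe sets. With 3 arrays on each side, a single gene cannot reach an exact two-sided permutation p under 0.1.

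Receptors and ligands were counted apart. Among the 22 receptors, 2 rose, 16 had a log2 difference above 0 and the median log2 difference was 0.09. Among the 34 ligands, 1 rose, 19 had a difference above 0 and the median was 0.03, and over all tested probe sets it was 0.00, with 51% of them above 0. Receptor differences ran between -0.21 and 0.75 and ligand differences between -0.11 and 0.83. The 3 called genes stood clear of the rest, as the next difference in size was 0.37.

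**Figure D1:**
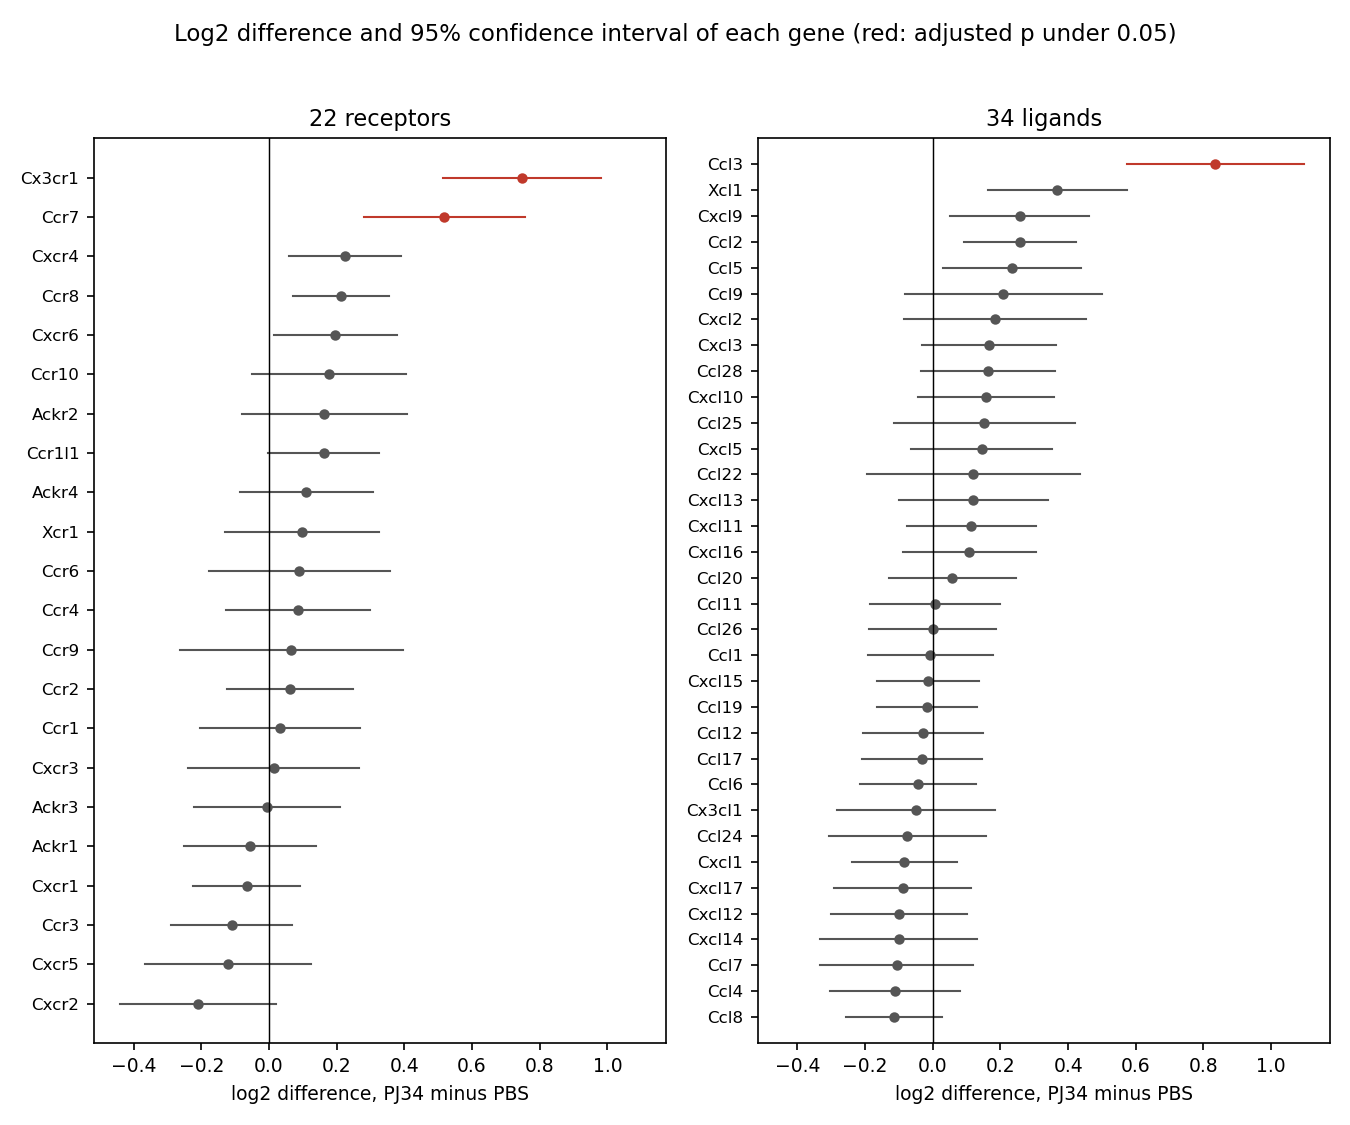
Log2 difference (PJ34 minus PBS) of each chemokine receptor and ligand, with receptors and ligands in separate panels and bars giving the 95% confidence interval from limma. Ccl3 at 0.83, Cx3cr1 at 0.75 and Ccr7 at 0.52 lie to the right of the other genes.

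Cx3cr1 encodes the receptor for the membrane-bound chemokine fractalkine and is best known from monocytes, microglia and cytotoxic lymphocytes. Its values were 7.80, 7.93 and 7.73 on the PJ34 arrays, against 6.86, 7.15 and 7.21 on the PBS arrays. All PJ34 arrays were above all PBS arrays, and the lowest PJ34 value exceeded the highest PBS value by more than the range within the PJ34 group. The means were 7.82 ± 0.10 with PJ34 and 7.07 ± 0.19 with PBS (SD, n = 3 each). The log2 difference was 0.75 (SE 0.10), a 1.68-fold rise (95% interval 1.43 to 1.98, adjusted p = 0.00879 from limma). In bulk RNA, more cells carrying a transcript and more transcript per cell cannot be told apart.

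Markers of monocytes and macrophages were counted beside this result. Of the 8 markers in that list, 2 rose and none fell, beside 1.72% of all probe sets called higher and 1.34% lower. The mean value of the 8 per array was 4.02 to 4.12 with PJ34 and 3.74 to 3.82 with PBS. The high-affinity antibody receptor Fcgr1 had 7.44, 7.57 and 7.35 with PJ34 and 6.80, 6.84 and 6.83 with PBS, a log2 difference of 0.63. The lysosomal glycoprotein Cd68 rose by 0.51, without passing the threshold when any single array was left out. Adgre1, Csf1r, Lyz2, Mpeg1, Cd14 and Itgam did not pass the adjusted threshold and lay below the median value of the probe sets. At an unadjusted p under 0.05 from limma, 4 of the 8 were higher and 0 lower, with Itgam (0.45) and Cd14 (0.34) added. The shares of all probe sets at that threshold were 8.95% and 7.74%. The median log2 difference of the list was 0.25, with 7 genes above 0 and 1 below, Csf1r (-0.10). The part of this list in the Cx3cr1 result was not tested.

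Ccr7 encodes the receptor that brings T cells and dendritic cells into lymph nodes along Ccl19 and Ccl21. It had 6.49, 6.30 and 6.40 with PJ34, against 6.11, 5.77 and 5.75 with PBS. The groups did not overlap, and PBS replicate 1 was the highest of its group by a wide margin. Means were 6.40 ± 0.09 with PJ34 and 5.88 ± 0.20 with PBS (SD, n = 3 each), a log2 difference of 0.52 (SE 0.10, 1.43-fold, 95% interval 1.21 to 1.69, adjusted p = 0.0378 from limma). This call held in only 1 of 6 fits from which a single array was dropped, the one without PBS replicate 1 (adjusted p = 0.0225 from limma), and in the others the adjusted p was between 0.0615 and 0.139. Of 11 measured T cell markers, 1 rose and none fell, beside 1.72% of all probe sets called higher and 1.34% lower. The coreceptor Cd4 rose by 0.62 (4.46, 4.42 and 4.46 with PJ34, 3.79, 3.89 and 3.81 with PBS). The mean of the T cell list per array was 5.68 to 5.78 with PJ34 and 5.63 to 5.69 with PBS. The part of this list in the Ccr7 result was not tested.

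The highest value of any gene in the family belonged to Ccr8, a receptor of regulatory and type-2 helper T cells, at or above 93.4% of tested probe sets. Ccr8 had 9.46, 9.56 and 9.53 with PJ34 and 9.27, 9.31 and 9.34 with PBS. The groups did not overlap but the step was small, 0.21 on the log2 scale (SE 0.062, adjusted p = 0.12 from limma). Cxcr4, the Cxcl12 receptor, had 7.54, 7.73 and 7.53 with PJ34 and 7.39, 7.35 and 7.38 with PBS, also without overlap. Its log2 difference was 0.23 (SE 0.073, 1.17-fold, 95% interval 1.04 to 1.31) and did not pass the threshold (adjusted p = 0.155 from limma). Cxcr6, the receptor for the membrane-bound ligand Cxcl16, had 7.59, 7.59 and 7.41 with PJ34 and 7.23, 7.38 and 7.40 with PBS. Here the lowest PJ34 value and the highest PBS value nearly touched, and the log2 difference was 0.20 (SE 0.080, adjusted p = 0.261 from limma).

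**Figure D2:**
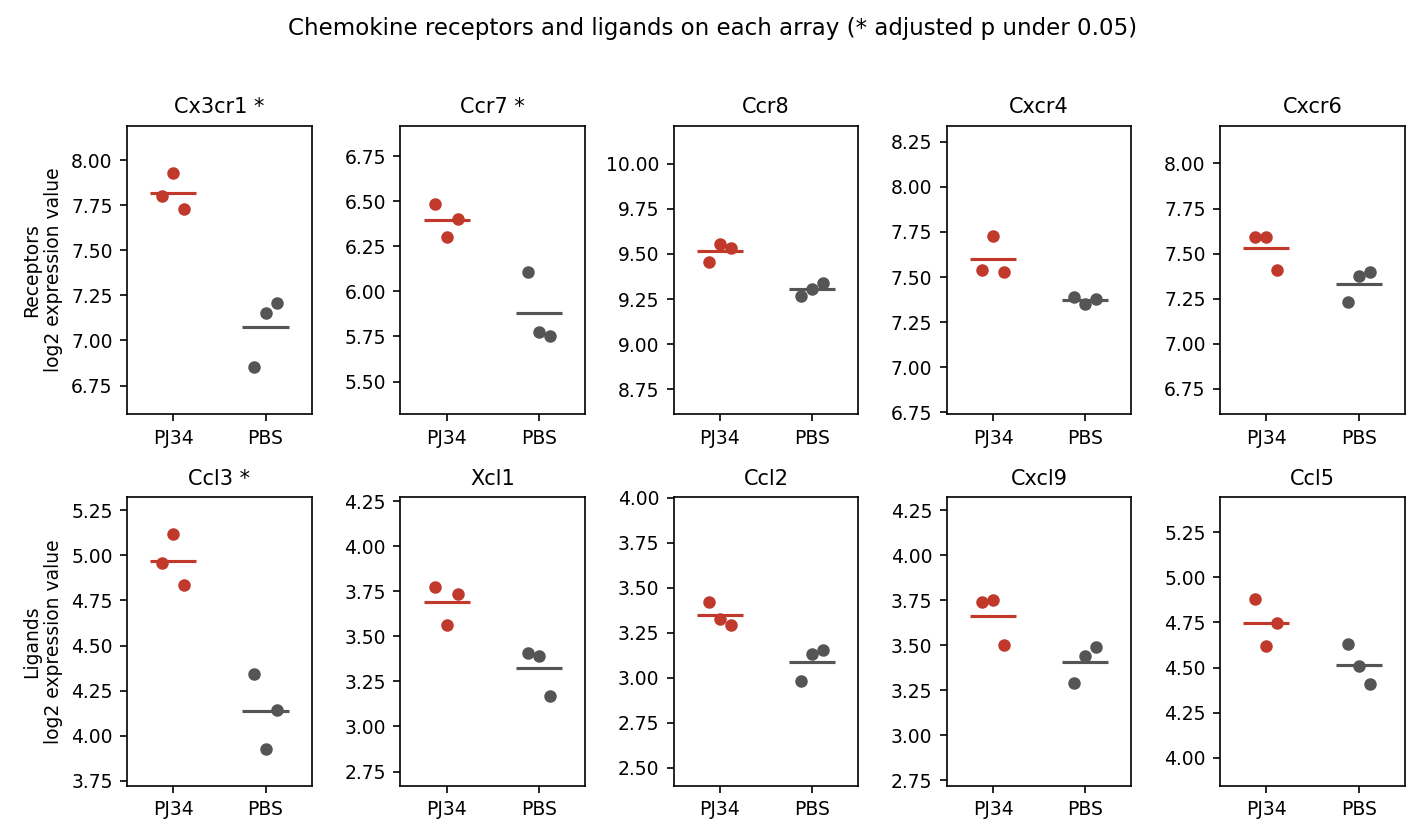
Log2 expression value on every array (points) with the group mean (bars) for the receptors and ligands with an unadjusted p under 0.05, PJ34 left of PBS in each panel. Cx3cr1, Ccr7 and Ccl3 show the widest steps between groups, and of the 10 genes drawn only Ccl5 has overlapping groups.

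Cx3cr1, Ccr7, Ccr8, Cxcr4 and Cxcr6 were the 5 receptors with a value at or above the median of the tested probe sets. All 5 were separated upwards, with a median log2 difference of 0.23. This division was made after the values were seen and carries no test. Among all 11705 probe sets at or above that median, 2.92% were called higher and 19.3% were separated upwards, more than among all probe sets.

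The remaining 17 receptors lay below the median value. None was called in either direction, 11 had a difference above 0 and 6 below, and their median log2 difference was 0.06. Of all tested probe sets, 342 of the 402 called higher and 284 of the 314 called lower lay at or above the median value. Calls were thus rare among dim probe sets, and a count of 0 among 17 says little about these receptors. Ackr2, the brightest of them and a decoy receptor for inflammatory CC ligands, had 4.18, 4.23 and 4.40 with PJ34 and 4.29, 3.90 and 4.12 with PBS, which overlap. Ccr10, a receptor of skin-homing T cells and plasma cells, was separated upwards by a narrow gap, with 4.22, 4.20 and 4.26 with PJ34 and 3.82, 4.15 and 4.19 with PBS. Ccr1l1, a Ccr1-like gene, was separated upwards too at a difference of 0.16 (adjusted p = 0.304 from limma). The lowest difference belonged to Cxcr2, a neutrophil receptor, with 2.29, 2.34 and 2.24 under PJ34 and 2.72, 2.47 and 2.32 under PBS. These groups overlap, and the 95% interval of the difference was -0.44 to 0.02.

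By structural class, 1 of 10 measured CC receptors rose with PJ34 (Ccr7), none of 6 CXC receptors, 1 of 2 XC and CX3C receptors (Cx3cr1) and none of 4 atypical receptors. Their median log2 differences were 0.09 for CC, -0.03 for CXC, 0.42 for XC and CX3C and 0.05 for atypical receptors. Within the CXC class, differences ran between -0.21 (Cxcr2) and 0.23 (Cxcr4).

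Among the ligands, Ccl3 was the only call. Ccl3, or macrophage inflammatory protein 1-alpha, attracts monocytes and T cells and slows the cycling of hematopoietic progenitors. Its values were 4.96, 5.12 and 4.84 with PJ34 and 4.34, 3.93 and 4.14 with PBS. The groups were far apart compared with their spread, at 4.97 ± 0.14 with PJ34 and 4.14 ± 0.21 with PBS (SD, n = 3 each). The log2 difference of 0.83 (SE 0.11) was the highest of the 56 genes, a 1.78-fold rise (95% interval 1.49 to 2.14, adjusted p = 0.00879 from limma). The probe set lay at or above 47.7% of tested probe sets, just below their median.

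Ccl4, the gene next to Ccl3 on chromosome 11 and a ligand of similar action, did not pass the test. It had 3.90, 3.89 and 3.997 with PJ34 and 4.14, 3.87 and 4.10 with PBS, which overlap, and its log2 difference was -0.11 (95% interval -0.30 to 0.08, adjusted p = 0.58 from limma). Ccl6, the neighbour on the other side, had a difference of -0.04. Cx3cr1 and Ccr8 are likewise neighbours, on chromosome 9, and differed by 0.75 and 0.21.

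The promoter windows of the called genes are shown because their transcripts rose. Each holds the 250 bases before the RefSeq gene start in build GRCm38.p6, on the gene's strand. Cx3cr1 lies on the minus strand at chr9:120068297-120068546 and Ccl3 on the minus strand at chr11:83649379-83649628. Ccr7 has no entry in the table used.
Cx3cr1: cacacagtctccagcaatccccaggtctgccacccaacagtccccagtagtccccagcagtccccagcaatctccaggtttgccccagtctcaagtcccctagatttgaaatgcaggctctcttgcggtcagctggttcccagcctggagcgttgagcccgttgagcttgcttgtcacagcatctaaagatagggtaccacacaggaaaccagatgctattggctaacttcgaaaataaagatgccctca
Ccl3: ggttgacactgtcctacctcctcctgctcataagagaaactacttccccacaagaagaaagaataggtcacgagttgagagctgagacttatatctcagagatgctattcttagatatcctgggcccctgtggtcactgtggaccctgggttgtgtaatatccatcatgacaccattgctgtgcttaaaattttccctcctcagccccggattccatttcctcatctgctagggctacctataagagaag
Sequence patterns with known roles in chemokine promoters were searched on both strands, the NF-kB consensus by its name and the AP-1 site TGANTCA, where N is any base. Neither was found in these windows, which says only that these letters are absent there.

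Windows were available for 42 of the 56 genes. The NF-kB consensus was in 9 of the 42, those of Cxcl1, Cxcl2, Cxcl3, Cxcl10, Ccl9, Ccl20, Ackr2, Ccr3 and Ccr6, and in 3.9% of all 32851 promoter windows of that length. The AP-1 pattern was in 4 of the 42 (Ccl9, Ccr3, Ccr4 and Cxcl10) and in 6.75% of all windows. The patterns overlapped each other in 0 of the 42 windows. None of the 9 genes with the NF-kB pattern passed the test with PJ34. That follows from the pattern's absence in the windows of Cx3cr1 and Ccl3, the only called genes with a window. With 3.06% of all tested probe sets called, a count of 0 among 9 genes says nothing about the pattern. The 60 bases around the match are shown for 4 CXC ligands, since 3 of them, Cxcl1, Cxcl2 and Cxcl3, hold the same letters. Capitals mark the match, which in those 3 is a pair of overlapping matches, 1 per strand. The window of Cxcl10 held 2 separate matches, of which the one nearer to the gene start is shown. The stretches lie at chr5:90891150-90891209 (Cxcl1), chr5:90903778-90903837 (Cxcl2) and chr5:90786004-90786063 (Cxcl3) on the plus strand and at chr5:92348958-92349017 (Cxcl10) on the minus strand.
Cxcl1: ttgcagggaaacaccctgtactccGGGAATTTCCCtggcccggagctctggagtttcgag
Cxcl2: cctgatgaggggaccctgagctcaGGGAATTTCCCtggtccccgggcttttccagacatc
Cxcl3: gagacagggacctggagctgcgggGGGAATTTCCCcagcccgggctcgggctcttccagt
Cxcl10: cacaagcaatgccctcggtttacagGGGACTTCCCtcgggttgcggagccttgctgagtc
A match of letters is a description and not a bound site. The log2 differences of these genes with PJ34 were -0.08 for Cxcl1, 0.18 for Cxcl2, 0.17 for Cxcl3 and 0.16 for Cxcl10, none past the threshold.

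After Ccl3, 4 ligands had an unadjusted p under 0.05, all with higher values in PJ34 and none past the adjusted threshold. Xcl1, Ccl2 and Cxcl9 lay at or above only 29.1%, 24.0% and 29.5% of tested probe sets, and Ccl5 at or above 48.8%. Xcl1, or lymphotactin, a product of activated T and NK cells, had 3.77, 3.56 and 3.74 with PJ34 and 3.41, 3.39 and 3.17 with PBS. The groups did not overlap, at a log2 difference of 0.37 (SE 0.090, adjusted p = 0.0716 from limma). Ccl2, the main monocyte attractant, had 3.42, 3.33 and 3.29 with PJ34 and 2.98, 3.13 and 3.15 with PBS, a difference of 0.26 (SE 0.072, adjusted p = 0.108 from limma). The groups of Ccl2 were also apart. Cxcl9, an interferon-gamma-induced ligand of Cxcr3, had 3.74, 3.75 and 3.50 with PJ34 and 3.29, 3.44 and 3.49 with PBS, where the lowest PJ34 and the highest PBS value nearly met (difference 0.26, adjusted p = 0.189 from limma). Ccl5, an attractant of T cells, had 4.88, 4.62 and 4.75 with PJ34 and 4.63, 4.51 and 4.41 with PBS, so that PBS replicate 1 lay within the PJ34 range (difference 0.23, adjusted p = 0.228 from limma).

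The 6 ligands with the highest mean over the 6 arrays were Ccl3 and Ccl5, given above, and the 4 that follow. Ccl25, a ligand of thymus and small intestine, had 6.91, 6.996 and 6.55 with PJ34 and 6.61, 6.61 and 6.78 with PBS. Cxcl1, a neutrophil attractant, had 5.22, 5.25 and 5.39 with PJ34 and 5.39, 5.33 and 5.38 with PBS. Ccl7, a monocyte attractant, had 4.72, 4.59 and 4.70 with PJ34 and 4.95, 4.57 and 4.81 with PBS. In these 3 genes the groups overlapped, and they were the only ligands at or above the median value of the tested probe sets. Cxcl17, a mucosal ligand, had 4.42, 4.29 and 4.45 with PJ34 and 4.64, 4.35 and 4.43 with PBS. The adjusted p of these 4 from limma was between 0.59 and 0.695. No ligand reached the 75th percentile of values, which 4 receptors did.

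By ligand group, 1 of 13 inflammatory CC ligands rose (Ccl3), and their median log2 difference was -0.01. Of 11 measured homeostatic and barrier ligands 0 were called, with a median of 0.06, and 0 of 5 neutrophil-attracting CXC ligands, with a median of 0.15. The 3 interferon-inducible CXC ligands were all above 0, with Cxcl9 at 0.26, Cxcl10 at 0.16 and Cxcl11 at 0.11, and 0 passed. Ccl8 was the only gene of the family with all PJ34 values below all PBS values, at 2.76, 2.73 and 2.80 with PJ34 and 2.83, 2.88 and 2.92 with PBS. The step was -0.11 (95% interval -0.26 to 0.03, adjusted p = 0.418 from limma).

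**Figure D3:**
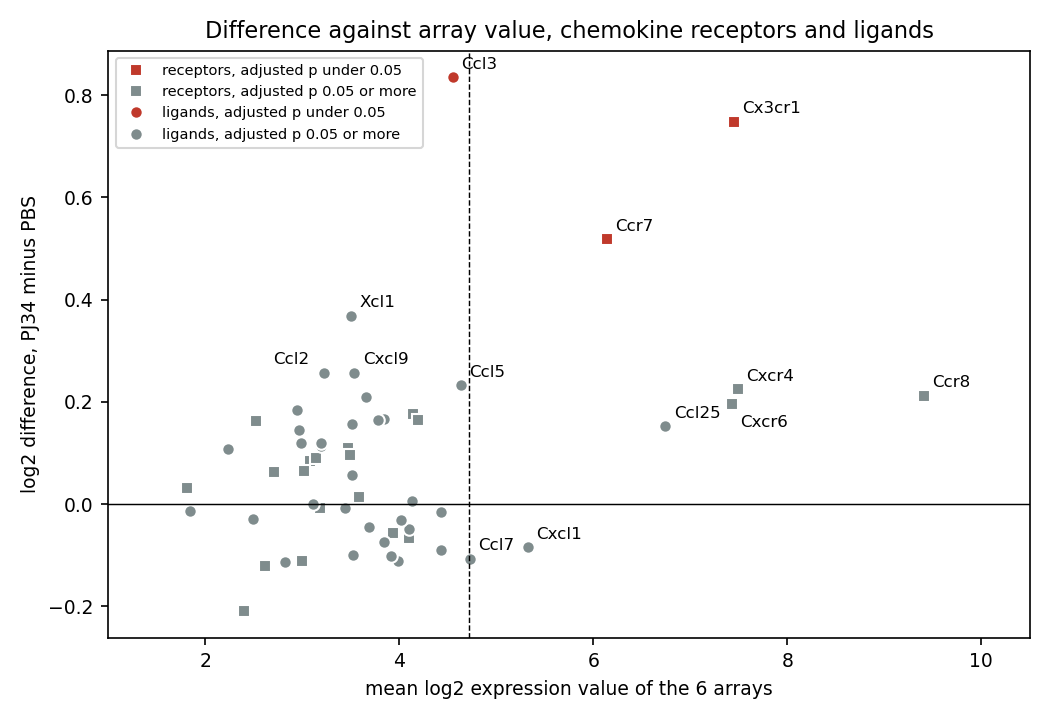
Log2 difference (PJ34 minus PBS) of each receptor and ligand against its mean log2 value over the 6 arrays, with the median value of all tested probe sets as a vertical line. The 5 receptors right of the line lie between 0.20 and 0.75, and the 3 ligands right of it between -0.11 and 0.15.

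The partners of the called genes did not pass the test. Cx3cl1, or fractalkine, the ligand of Cx3cr1, had 3.93, 4.19 and 4.10 with PJ34 and 3.94, 4.27 and 4.16 with PBS. Ccr1, a receptor of Ccl3, had 1.83, 1.70 and 1.96 with PJ34 and 1.62, 1.80 and 1.97 with PBS, among the lowest values on the array. Ccl19, a ligand of Ccr7, had 4.40, 4.37 and 4.49 with PJ34 and 4.40, 4.49 and 4.41 with PBS. In each of these 3 genes the groups overlapped, with log2 differences of -0.05, 0.03 and -0.02. Ccl19 lies in a region with near-identical copies, so its value is uncertain. Cxcl12, the ligand of Cxcr4, differed by -0.10, Cxcl16, the ligand of Cxcr6, by 0.11, and Ccl1, a ligand of Ccr8, by -0.01, with adjusted p from limma of 0.648, 0.603 and 0.981.

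Downstream and around the receptors, 84 of 96 listed genes of 5 lists were measured, of which 4 rose and 2 fell, with a median log2 difference of 0.05. The shares over all tested probe sets were 1.72% higher and 1.34% lower, and 2.92% and 2.43% among those at or above the median value, where 63 of the 84 genes lay. Of 12 other chemokines and modulators, Ccrl2 and Ppbp rose. Ccrl2, a non-signalling receptor that presents chemerin, had 5.12, 5.26 and 5.18 with PJ34 and 4.61, 4.88 and 4.75 with PBS, without overlap (difference 0.44, SE 0.084). Ppbp, a platelet CXC ligand precursor, had 2.35, 2.33 and 2.38 with PJ34 and 2.09, 2.02 and 2.06 with PBS (difference 0.30, SE 0.060), at or above only 8.36% of tested probe sets.

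Of 15 heterotrimeric G protein genes, 1 rose. Gnai3, an inhibitory alpha subunit of the kind chemokine receptors couple to, had 9.85, 10.03 and 9.95 with PJ34 and 9.56, 9.57 and 9.53 with PBS (difference 0.39, SE 0.068). The groups were apart and tight. Of 11 receptor kinases, arrestins and RGS proteins, 0 rose and 2 fell. Rgs18, a GTPase-activating protein of hematopoietic cells that shortens G protein signals, had 3.99, 4.42 and 3.96 with PJ34 and 4.85, 4.83 and 4.91 with PBS, a log2 difference of -0.74 (SE 0.12). Arrb2, a beta-arrestin that uncouples and internalises receptors, had 6.84, 6.70 and 6.81 with PJ34 and 7.14, 7.13 and 7.09 with PBS (difference -0.34, SE 0.065). In both genes all PJ34 arrays were below all PBS arrays.

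Of 26 signalling kinases, lipases and adaptors, 0 were called in either direction, and 3 were higher and 1 lower at an unadjusted p under 0.05 from limma. At that unadjusted threshold 8.95% of all tested probe sets were higher and 7.74% lower. Among probe sets at or above the median value, where 22 of the 26 genes lay, 13.1% were higher. Of 20 small GTPase and motility genes, 1 rose. Prex1, a Rac exchange factor activated by G protein beta-gamma subunits, had 6.75, 6.60 and 6.55 with PJ34 and 6.04, 6.04 and 6.31 with PBS (difference 0.50, SE 0.094). The groups did not overlap. In fits that left out 1 array, Rgs18, Prex1 and Ccrl2 each passed in 1 of 6, Gnai3 in 2 and Arrb2 and Ppbp in 0, with a highest adjusted p between 0.0656 (Rgs18) and 0.152 (Ppbp) from limma.

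**Figure D4:**
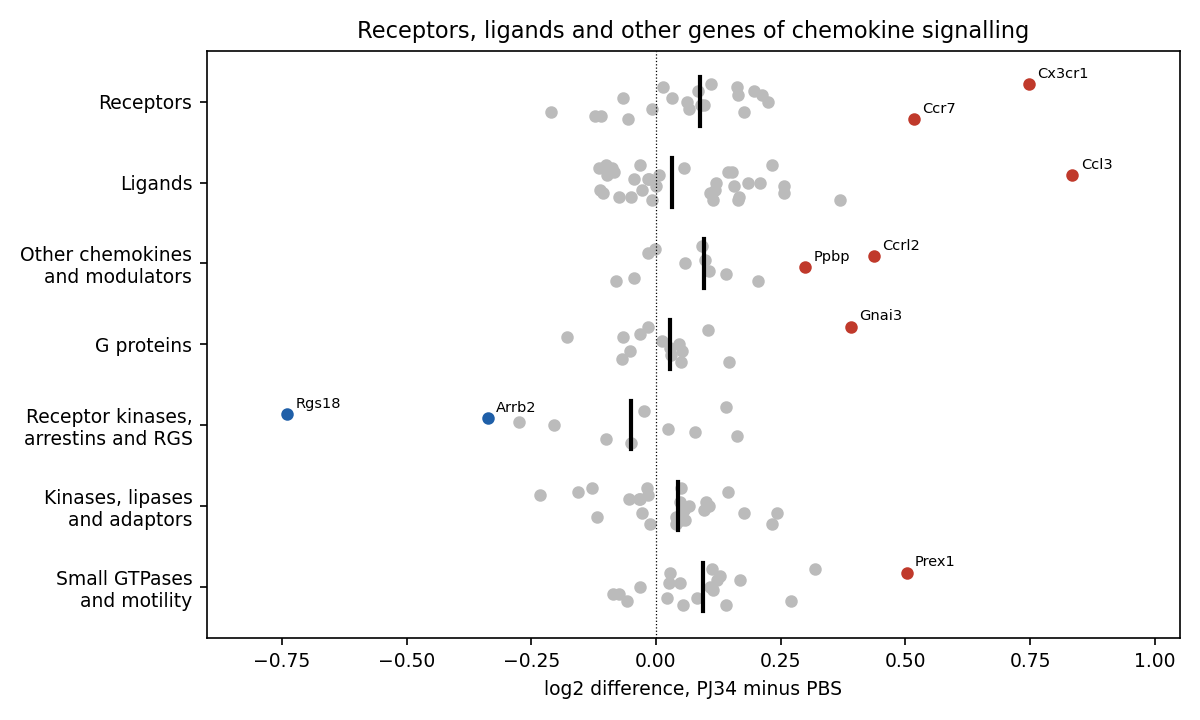
Log2 difference (PJ34 minus PBS) of each measured gene of the 5 lists of chemokine receptor signalling, 1 row per list, below the receptors and ligands themselves, with thick vertical lines at the medians and called genes in red (higher) or blue (lower). The called genes of the lists are Prex1, Ccrl2, Gnai3 and Ppbp above 0 and Arrb2 and Rgs18 below.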

How the data were processed

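Total RNA of C1498 cells was biotin-labelled and hybridised to Affymetrix Mouse Gene arrays, 3 with PJ34 (20 μM, 48 h) and 3 with PBS. The authors summarised the arrays with RMA in Affymetrix Expression Console 1.3.1, per the labels, and deposited log2 expression values, background corrected and quantile normalized. RMA narrows differences at low values, and detection calls were not used here. The genome build behind the probe sets is not given in the sources used here. Of 35556 deposited probe sets, the platform annotation lists 1 gene for 21789, several for 1621 and none for 12146. Symbols of all 56 genes matched RefSeq by gene number.

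The 23410 probe sets with a gene were tested, PJ34 minus PBS, with limma 3.58.1 (lmFit and eBayes) in R 4.3.3, with Benjamini-Hochberg adjustment over all of them and a threshold of 0.05. The script was tested on simulated data. Groups came from the labels, and neither the labels nor the files name a batch. The number of arrays limits the precision. Values per array are given for genes with an adjusted or unadjusted p under 0.05, for known partners of the genes with an adjusted p under 0.05, and for the 6 ligands and 6 receptors with the highest mean. Genes outside this rule (Ccl4, Ccl8, Ccr10 and Cxcr2) are given per array as examples chosen after their values were seen. Of the pathway and marker lists, genes past the threshold are named. The genes and lists were chosen with earlier results of these data known. Alternatives were an intensity trend with robust eBayes, median centring, a filter on dim probe sets, all deposited probe sets, leaving out each array, a replicate block, medians over every probe set of the genes, and the methods' t-test. Other experiments of the study were not used here, and 1 gene of the family is not reported here.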

Additional observations from a re-analysis of the deposited data

How the results depend on the processing

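Cx3cr1 and Ccl3 passed in all 6 fits that left out 1 array, and lost the threshold with every deposited probe set (adjusted p = 0.056 and 0.057 from limma) and in the methods' t-test after adjustment (0.11 and 0.114). Ccl3 was not in the fit without dim probe sets. Over the alternatives their adjusted p was between 9.66e-05 and 0.11 for Cx3cr1 and between 0.000424 and 0.114 for Ccl3. Ccr7 ranged between 0.00386 and 0.188, and lost the threshold with every deposited probe set, in the t-test and without any array other than PBS replicate 1. No chemokine or receptor was called lower in any alternative run. Apart from settings whose construction changes the number of probe sets or samples tested, the cause of these changes was not tested.

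An intensity trend with robust eBayes called 1008 probe sets higher and 920 lower, with 2 ligands (Xcl1 added, adjusted p = 0.0462) and 4 receptors (Ccr8 and Cxcr4 added, 0.0131 and 0.0494). Keeping only probe sets at or above the median value gave 923 higher and 836 lower, 0 ligands and 4 receptors, with medians of -0.085 over the 3 ligands and 0.23 over the 5 receptors left. Testing all 35556 probe sets gave 112 higher and 76 lower, with 0 ligands, 0 receptors and 0 pathway genes in either direction. The methods' t-test after adjustment gave 78 higher and 62 lower, again with 0 ligands, 0 receptors and 0 pathway genes. At the same adjusted threshold limma called 1 ligand and 2 receptors. Its unadjusted p under 0.05, a looser threshold, held for 5 ligands and 5 receptors. With any 1 array dropped, 143 to 281 were higher and 79 to 320 lower, with 1 ligand each time, 1 to 2 receptors, 0 to 1 pathway genes higher and 0 to 1 lower, and medians of 0.02 to 0.05 for ligands and 0.06 to 0.15 for receptors. Reading every probe set of a gene gave medians of 0.00 and 0.09.

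Deviations of same-numbered arrays from their group means correlated at -0.013, 0.131 and -0.0089. These values cannot tell whether arrays with the same number shared a culture or a batch, which the labels do not say. A replicate block gave 219 higher and 140 lower, 1 pathway gene in each direction, and 1 ligand and 2 receptors as before.

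Among single genes, 17 changed sign in some alternative, all with a main difference of at most 0.09 in size and none called. Centring turned Ccl11 to -0.013, Ccl26 to -0.020 and Cxcr3 to -0.0067. With 1 array left out, differences lay between -0.11 and 0.067 for Ackr3, -0.080 and 0.050 for Ccl1, -0.077 and 0.049 for Ccl11, -0.077 and 0.034 for Ccl12, -0.089 and 0.026 for Ccl17, -0.050 and 0.012 for Ccl19, -0.00071 and 0.13 for Ccl20, -0.14 and 0.010 for Ccl24, and -0.083 and 0.060 for Ccl26. They lay between -0.056 and 0.12 for Ccr1, -0.0011 and 0.12 for Ccr2, -0.013 and 0.14 for Ccr4, -0.016 and 0.18 for Ccr6, -0.053 and 0.20 for Ccr9, -0.14 and 0.023 for Cx3cl1, -0.045 and 0.033 for Cxcl15, and -0.051 and 0.14 for Cxcr3.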

Other observations

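Some chemokine genes were read by probe sets that the counts above left out. The 4 probe sets assigned to several Ccl21 genes carried the same values on every array, with a log2 difference of 0.02 (adjusted p = 0.965 from limma). The 3 probe sets assigned to several Ccl27 genes held 2 distinct sets of values, at 0.05 and 0.03. The other 4 probe sets of Ccl19 differed by between -0.07 and -0.06, and the second probe set of Ccl25 by 0.09, where the one counted differed by 0.15.

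Markers of 6 other cell types had 0 calls in either direction with PJ34 at an adjusted p under 0.05 from limma, over 8 NK cell, 5 B cell, 10 granulocyte, 4 dendritic cell, 6 fibroblast and 4 endothelial cell genes. At an unadjusted p under 0.05 from limma, 1 granulocyte, 1 fibroblast and 1 endothelial gene were lower and none was higher. Over all tested probe sets, 3.06% were called at the adjusted threshold, and 7.74% were lower and 8.95% higher at the unadjusted one. So few marker genes say little about these cell types. The highest mean value over the 6 arrays was that of Klrk1 among NK cell genes (4.90), Cd79b among B cell genes (4.38), Camp among granulocyte genes (4.32), Zbtb46 among dendritic cell genes (4.34), Col1a1 among fibroblast genes (5.22) and Pecam1 among endothelial genes (7.15). Pecam1, an adhesion molecule also made by leukocytes, ranged between 6.996 and 7.12 with PJ34 and between 7.20 and 7.33 with PBS (difference -0.22, adjusted p = 0.133 from limma).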
